A study of Mus musculus with 122 samples.

Results

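The regions described here were sites of the chimeric proteins CLL and LLC in mouse embryonic stem cells at which neither of the proteins the chimeras were built from, CTCF and CTCFL, had a replicated site in the libraries labelled 24 h. They were chosen by overlap of deposited FLAG ChIP-seq peaks, so the absence of a parental site and the presence of a chimera site are the choice itself and not a result. A site was a merged stretch with a peak in both replicates of a group, on chromosomes 1 to 19 and X. A CLL ID or LLC ID site was taken when it shared not even 1 bp with a site of CTCF or CTCFL, each taken in D and in ID cells. By this rule 2567 of 15633 CLL ID sites (16.4%) and 2560 of 6621 LLC ID sites (38.7%) were taken. Merged with each other they gave 3862 regions, out of 17237 regions of CLL ID and LLC ID in all. They are called bound by neither parent for short, although 2338 of the 3862 (60.5%) had a peak in at least 1 single parental library labelled 24 h, against 91.2% of all regions. Regions that overlap a parental site have such a peak by the rule, so the 91.2% is largely set by it. In libraries labelled 48 h with mock treatment, 68.2% of the 3862 had a peak in at least 1 of the 2 CTCFL ID libraries. For CTCF ID this share was 55.7%, and 864 regions remained when sites with a mock peak were left out. In single libraries the shares were 45.3% and 58.1% for CTCFL ID, against 39.7% and 64.2% of all regions. For CTCF ID they were 39.3% and 40%, against 70.5% and 71.8% of all regions. The other 13375 regions overlapped a parental site, and 5 of the 3862 regions also touched one of them.

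CLL joins the N terminus of CTCF to the zinc fingers and C terminus of CTCFL, and LLC joins the N terminus and zinc fingers of CTCFL to the C terminus of CTCF. All transgenes were induced by doxycycline from the Tigre locus of E14Tg2a cells, a male line of 129/Ola background, and carried an N-terminal FLAG tag and a C-terminal mRuby2. In all lines, controls included, both alleles of Ctcf were fused to an auxin-inducible degron with eGFP, and Tir1 was expressed from Rosa26, so that auxin (IAA) removes endogenous CTCF. D cells were given Dox and ID cells were given IAA and Dox, with 2 replicates per group. The sample labels give 48 h for CLL and LLC and 24 h for the 4 parental groups, whereas the treatment protocol gives 2 days for all ChIP-seq. The chimera and the labelled time therefore cannot be told apart in the choice of the regions. FLAG libraries outside that choice were CLL D and LLC D, CTCF ID and CTCFL ID at 48 h with RNase or mock treatment, and CLC and LCL in D and ID at 24 h. By the methods, cells for RNase treatment were permeabilized and incubated before they were crosslinked, and the handling of mock cells is not described. Labelled time and such handling therefore cannot be told apart where RNase or mock libraries are set beside the parental libraries at 24 h. CLC has the ends of CTCF around the zinc fingers of CTCFL, and LCL the ends of CTCFL around those of CTCF. RAD21 ChIP-seq, with an antibody to a cohesin subunit in place of FLAG, was made in CTCF, CTCFL, CLC and LCL cells at 24 h by the labels, and neither RAD21 ChIP-seq nor RNA-seq of CLL or LLC cells was analysed here. In 9 untreated RNA-seq libraries of the other lines, the embryonic stem cell markers Pou5f1, Sox2, Nanog, Zfp42, Esrrb and Tdgf1 together had 115435 to 181020 normalized counts. The markers of primitive endoderm had 354 to 3088, those of mesoderm 10.3 to 66.2, those of neural cells 206 to 570 and those of fibroblasts 76.0 to 424.

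CTCF is a zinc finger protein that binds a long GC-rich motif and stops cohesin on the chromatin fibre, and CTCFL (also called BORIS) is its germline paralog with closely similar zinc fingers. A protein with the zinc fingers of CTCFL would be looked for at the same core motif. Simple repeats of CA, read as TG on the other strand, are among the most frequent microsatellites of the mouse genome. Where a repeat is pure, short reads from it cannot be placed at 1 position, so that reads counted as unique come from repeats with interruptions or from their edges.

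The sequence at the regions was of 1 kind in most of them. The window of 50 bases on either side of the strongest summit of each region was read from GRCm38 on the plus strand, and CACACACA or its reverse complement TGTGTGTG was found in 3236 of the 3862 regions (83.8%). In all regions of CLL ID and LLC ID it was found in 34.9%, and in those that overlapped a parental site in 2788 of 13375 (20.8%). The region of LLC alone with the strongest signal in the weaker replicate is shown as an example of the repeat, with CACACACA and TGTGTGTG in capitals.
LLC alone, chr17:79935332-79935432: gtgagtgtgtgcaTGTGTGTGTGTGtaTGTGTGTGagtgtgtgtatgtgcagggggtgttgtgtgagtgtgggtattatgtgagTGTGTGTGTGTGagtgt
The runs of TG in it were broken by other bases.

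Other repeats were met where the 8 letters were not. Of the 626 regions without CACACACA, 468 (74.8%) were at least 50% soft-masked in the reference over the window, which marks repeats of any class, and 300 (47.9%) had a run of at least 20 bases in which pyrimidine and purine alternate. The fourth strongest region of CLL alone, in an intron of Maml3 (a co-activator of Notch signalling), is shown as one without the 8 letters, in which short runs of GT alternate with other bases.
CLL alone, chr3:51964636-51964736: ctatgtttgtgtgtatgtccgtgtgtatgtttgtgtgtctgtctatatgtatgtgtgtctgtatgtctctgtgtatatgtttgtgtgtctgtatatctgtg
No base of it is in capitals. Widening the window to 100 bp on either side raised the share with CACACACA to 92.0%, and narrowing it to 25 bp gave 67.0%.

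A small number of regions had another sequence. The core of the CTCF motif was described by a matrix of 14 positions. It was estimated from the 14167 sites of CTCF ID that overlapped a CTCFL D site. In each of 10 rounds only the sites that scored at or above the median were used. The paper reports base differences in the motif at CTCFL-only sites, and that form was not searched separately. A match scored above the 95th percentile of windows 1000 bp away from the summits, which 5.00% of those windows passed. It was found in 10 of the 3862 regions (0.259%), against 47.7% of all regions of CLL ID and LLC ID and 61.4% of those that overlapped a parental site. The sites behind the matrix are parental sites, which the rule kept out of the regions, so this contrast is not independent of the choice. The share was 1.62% without replicate 1, 0.926% without regions at 48 h mock peaks, 3.38% without soft-masked sites and 8.26% when every library was held to the same number of top-ranked peaks. Of the 10, 8 had no CACACACA, and 6 of these 8 were CLL regions without LLC. The 3 strongest of the 8 are shown with the match in capitals.
CLL alone, chr9:95676171-95676271: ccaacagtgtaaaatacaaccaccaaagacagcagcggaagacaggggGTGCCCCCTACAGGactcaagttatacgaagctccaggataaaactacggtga
CLL alone, chr10:8632818-8632918: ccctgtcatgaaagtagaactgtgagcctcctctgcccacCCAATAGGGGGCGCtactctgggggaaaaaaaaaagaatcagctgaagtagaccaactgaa
CLL and LLC, chr6:49236470-49236570: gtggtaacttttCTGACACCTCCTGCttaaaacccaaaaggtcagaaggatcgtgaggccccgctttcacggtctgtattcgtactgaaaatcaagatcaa
These regions were picked out after their values were seen.

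The base composition also differed. The median GC content of the window was 40.6% in the regions bound by neither parent, 52.5% in those that overlapped a parental site and 45.5% in windows 1000 bp from the former. It was 41.6% in the regions with CACACACA and 36.6% in those without it, while regions that overlapped a parental site and had no CACACACA had 54.5%. At least 1 CG was present in 30.8% of the regions bound by neither parent. It was present in 74.2% of those that overlapped a parental site and 58.3% of the windows 1000 bp from the former. The windows were at least 50% soft-masked in 94.2% of the regions bound by neither parent, 30.4% of those that overlapped a parental site and 21% of the windows 1000 bp away. The longest run in which pyrimidine and purine alternate had a median of 23 bases, against 7 in regions that overlapped a parental site and 6 in the windows 1000 bp away. Among regions without CACACACA it still had a median of 19 bases.

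Other motifs were searched on both strands in the same windows. A run of 6 CA units, which contains CACACACA, was found in 36.9% of the regions bound by neither parent, 7.55% of those that overlapped a parental site, 2.18% of windows 1000 bp from all summits and 1.01% of 32619 RefSeq promoters of GRCm38, 250 bases before to 50 after the start. CACACACA itself was in 4.75% of such windows and 4.11% of the promoters, and in 3.37% of all windows of the same length that tile the genome. CATACACA, which adds the TA step and was searched after the sequences were seen, was found in 70.1% of the regions, 18.2% of those that overlapped a parental site, 1.81% of the windows 1000 bp away and 1.28% of the promoters.

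Motifs of promoter factors were mostly rare in the regions. GGGCGG was in 2 of the 3862 (0.0518%), against 5.82% of those that overlapped a parental site and 35.9% of promoters, and CCAAT was in 1.79%, 7.86% and 37.6%. CACGTG was in 2.28% of the regions, 2.07% of those that overlapped a parental site, 1.62% of windows 1000 bp away and 7.20% of promoters. TGANTCA was in 0.259%, against 2.87% of the windows and 7.85% of promoters. ATGCAAAT was in 0.440% against 0.516% and 1.75%, and AGGCCTNG in 0.0259% against 1.65% and 5.41%. TGACGTCA (1.80% of promoters), CCGGAAG (8.92%), the palindromic NRF1 motif (0.978%) and the YY1 motif (0.852%), the last pair of 10 letters each, were in none of the 3862 regions, which allows a share of up to 0.0777%. In windows 1000 bp away they were in 0.0580%, 0.470%, 0.00580% and 0.0290%, so that only CCGGAAG lay above that limit there. The promoter sequences are also longer than the windows. A match says only that the letters are in the window.

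CLL and LLC shared a part of these regions. An LLC ID site overlapped 1262 of the 2567 CLL sites bound by neither parent (49.2%), against 32% of all CLL ID sites and 28.7% of the CLL ID sites that overlapped a parental site. In the other direction a CLL ID site overlapped 1268 of the 2560 LLC sites bound by neither parent (49.5%), against 75.8% of all LLC ID sites and 92.3% of those that overlapped a parental site. Relative to the other sites of the same chimera, overlap was thus higher for CLL and lower for LLC, but the order for CLL depended on the repeat. With CACACACA, 51.3% of the CLL sites bound by neither parent and 74.4% of the CLL sites that overlapped a parental site were overlapped by an LLC ID site, and without it 37.8% and 17.6%. For LLC the shares were 50.7% and 88.6% with CACACACA and 42.5% and 96.6% without it. The overlap of CLL and of LLC sites fell to 14.5% and 1.94% with the same number of top-ranked peaks from every library, and to 23.1% and 22.7% without sites at 48 h mock peaks. It was 29.9% and 34.2% with a -log10 q of at least 5 in every list, and 33.1% and 29.6% without sites at a single parental peak. Of the merged regions, 1260 (32.6%) were sites of both chimeras, 1305 (33.8%) were sites of CLL alone and 1297 (33.6%) of LLC alone. Among the regions of CLL alone, 898 (68.8%) had a peak in at least 1 LLC ID library, against 30.9% of all regions of CLL alone. Among those of LLC alone, 869 (67.0%) had one in at least 1 CLL ID library, against 70.9% of all regions of LLC alone. With the D libraries of the other chimera counted too, these shares were 86.2% for CLL alone, against 34.1%, and 83.1% for LLC alone, against 85.4%. CACACACA was found in 87.2% of the regions bound by both chimeras, 81.3% of those of CLL alone and 83.0% of those of LLC alone.

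The repeat also divided the sites of each chimera as a whole. Of the CLL ID sites with CACACACA, 2167 of 4712 (46%) were bound by neither parent, against 400 of 10921 (3.66%) of those without it. Of the LLC ID sites with it, 2188 of 4362 (50.2%) were bound by neither parent, against 372 of 2259 (16.5%) of those without. It was present in 65.9% of all LLC ID sites and 30.1% of all CLL ID sites. Among LLC ID sites that did overlap a parental site, it was present in 53.5%.

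The peaks were weak. Fold enrichment over the local background, as given by the peak caller, had a median of 4.22 in CLL ID replicate 1 and 3.99 in replicate 2 at CLL sites bound by neither parent, against 5.47 and 7.90 at CLL sites that overlapped a parental site. In LLC ID it had a median of 4.78 and 4.31 at the sites bound by neither parent, and 5.28 and 5.08 at the others. The highest fold enrichment at a site bound by neither parent was 7.60 and 8.50 in the CLL ID replicates and 8.60 and 8.84 in those of LLC ID, while the others reached 17.2 to 20.5. The median -log10 q was 4.77 and 4.72 in CLL ID, against 9.31 and 24.9, and 4.02 and 4.61 in LLC ID, against 5.77 and 7.35. None of the 3126 sites of the strongest 20% of CLL ID, by the weaker replicate, was bound by neither parent, while 41.9% of the weakest 20% were. For LLC ID these shares were 10.7% and 57.4%. Among the sites bound by neither parent, fold enrichment with and without CACACACA was alike within the chimera. The medians were 4.22 and 4.22 in CLL ID replicate 1 and 4.81 and 4.65 in LLC ID replicate 1.

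**Figure D1:**
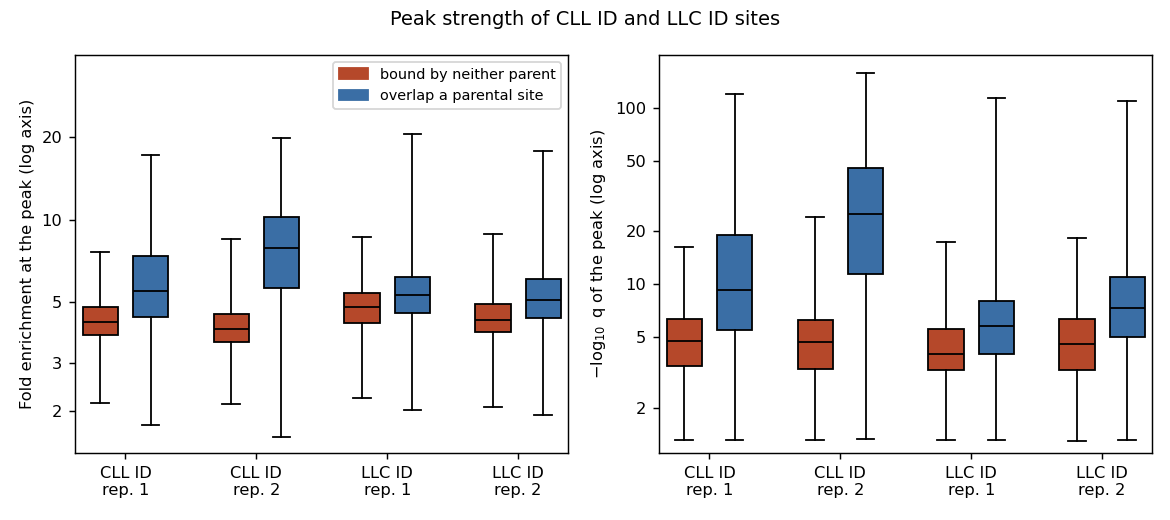
Fold enrichment (left) and -log10 q (right) on log axes for each replicate of CLL ID and LLC ID, with boxes from the lower to the upper quartile, a line at the median and whiskers to the lowest and highest value. Sites bound by neither parent (red) lay below those that overlapped a parental site (blue) in all 4 libraries, with medians of 3.99 to 4.78 against 5.08 to 7.90 for fold enrichment.

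The thresholds of the lists also differed. The lists of CLL and LLC ran down to a -log10 q of 1.3, whereas all other FLAG lists stopped at 2.00. At least 1 of the replicate peaks was below 2 in 193 of the 2567 CLL sites (7.52%) and 328 of the 2560 LLC sites (12.8%). With a minimum of 2 in every list, chosen after the data were seen, 2374 CLL and 2232 LLC sites were bound by neither parent, and 83.7% of the regions had CACACACA.

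The named regions show the range of values. At chr11:58593797-58594219, within 3 kb of the start of the olfactory receptor gene Olfr324, fold enrichment was 6.46 and 5.85 in CLL ID, 7.69 and 6.38 in LLC ID, 5.03 and 8.13 in CLL D and 6.55 and 7.66 in LLC D. Here the highest value was that of a D library, in which endogenous CTCF was present. At chr19:58610650-58611242, in an intron of 1810007D17Rik, it was 5.91 and 6.11 in CLL ID and 6.68 and 5.90 in LLC ID. At chr11:21403437-21403770, 32403 bp from the start of Ugp2 (which makes UDP-glucose), it was 6.19 and 6.40 in CLL ID and 7.36 and 5.73 in LLC ID. At chr2:36019524-36020013, 29637 bp from the start of Ndufa8 (a subunit of respiratory complex I), it was 5.63 and 7.07 in CLL ID and 5.94 and 6.08 in LLC ID. All 4 of these had CACACACA and a peak in 11 to 13 of the 20 FLAG libraries outside the choice.

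Among the strongest regions of 1 chimera alone, most had a peak in the other chimera too. The region chr17:9923516-9923874 had 5.74 and 6.64 in CLL ID and 6.56 in LLC ID replicate 2, and chr3:51964498-51964909 in Maml3 had 5.59 and 5.85 in CLL ID and 6.31 in LLC ID replicate 1. At chr19:44436377-44436753, fold enrichment was 5.59 and 5.64 in CLL ID and 5.43 in LLC ID replicate 2. For LLC alone, chr17:79935170-79935511 had 7.50 and 6.36 in LLC ID and 3.88 in CLL ID replicate 2. The region chr16:32574768-32575130 had 6.31 and 6.72 in LLC ID and 5.85 in CLL ID replicate 2, chr11:96245321-96245654 had 6.13 and 6.28 with 4.17 in CLL ID replicate 2, and chr6:46538216-46538583, in an intron of Cntnap2 (a neuronal adhesion protein), had 6.08 and 6.91 with 5.63 in CLL ID replicate 1. Of these 5 LLC regions, 1 had no CLL ID peak, chr7:137456132-137456400 in an intron of the glutaredoxin gene Glrx3, with 6.68 and 6.35 in LLC ID and 5.52 in CLL D replicate 2.

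The strongest region of CLL alone differed from these. At chr9:95675976-95676399, inside Pcolce2 (an enhancer of procollagen processing) and 171 bp from the start of the pseudogene Itpa-ps2, fold enrichment was 5.95 and 8.44 in CLL ID, with a -log10 q of 9.43 and 23.9. No LLC ID, CLL D or LLC D library and no RAD21 library had a peak there, while 1 single parental library and 4 of the 20 FLAG libraries outside the choice had one. The region chr10:8632714-8633056 also had a core match and had 4.51 and 8.50 in CLL ID, with a -log10 q of 4.89 and 19.4 and likewise no peak in LLC ID, CLL D, LLC D or RAD21. The region chr6:49236352-49236687 had a core match and peaks in both chimeras, with 5.16 and 6.17 in CLL ID and 6.74 and 6.76 in LLC ID, and a peak in 12 of the 16 RAD21 libraries. At chr17:23738119-23738476, within 3 kb of the start of Paqr4, fold enrichment was 4.47 and 4.52 in CLL ID, and none of the 20 FLAG libraries outside the choice had a peak, while 1 single parental library had one.

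Most regions had peaks in libraries that did not enter the choice. Of the 3862, 3737 (96.8%) had a peak in at least 1 of the 20 FLAG libraries outside it, against 99.2% of all regions of CLL ID and LLC ID, so that this share was slightly below that of all regions. The number of those libraries with a peak had a median of 6 and reached 18. At least 10 of the 20 had a peak at 564 regions (14.6%), against 60.4% of all regions. A peak in at least 1 single parental library was found at 2338 regions (60.5%), against 91.2% of all regions, although the parental sites, which need both replicates, were absent by the choice. The 91.2% is also largely set by the choice, since regions that overlapped a parental site all had such a peak. No region lay over an exon of Ctcf or Ctcfl, whose cDNA the transgenes hold.

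**Figure D2:**
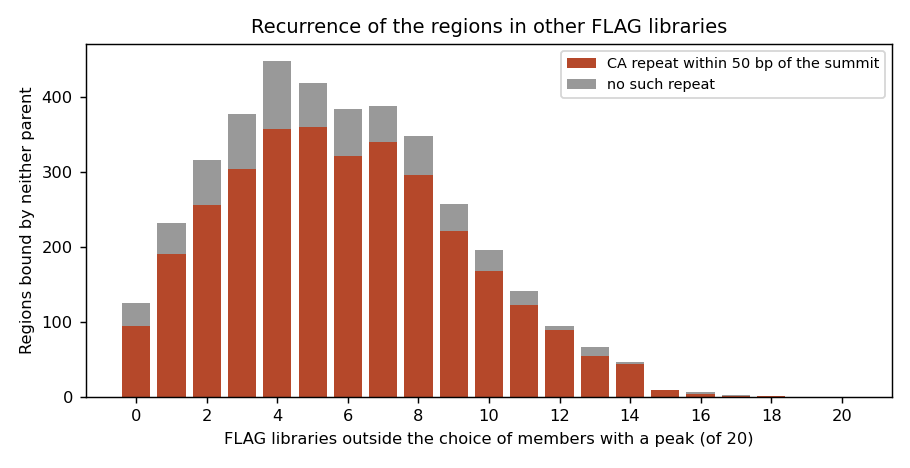
Number of regions bound by neither parent (vertical axis) by how many of the 20 FLAG libraries outside the choice had a peak there (horizontal axis), divided by CACACACA within 50 bp of the summit (red) or not (grey). The regions centre on a median of 6 libraries, and 125 had a peak in none.

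The libraries of the chimeras with endogenous CTCF present had many of these regions. A peak was found at 14.2% and 66% of them in the replicates of CLL D, against 10.9% and 61.5% of all regions, and at 27.5% and 78.0% in LLC D, against 17.4% and 38.1%. In LLC D replicate 2, 26.6% of the regions that overlapped a parental site had a peak. The regions bound by neither parent were thus listed more often than the others in all 4 D libraries of the chimeras, but the order depended on the repeat. Among regions with CACACACA, those bound by neither parent were listed less often than the others in all 4. The shares were 15.1% and 68.0% against 38.7% and 86.5% in CLL D, and 27.7% and 78.4% against 55.9% and 85.6% in LLC D. Among regions without CACACACA, those bound by neither parent were listed more often in all 4. The replicates of each D group differed widely from each other.

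The parental proteins had these regions as well in libraries labelled 48 h. In CTCFL ID with mock treatment, 45.3% and 58.1% of the regions had a peak, against 39.7% and 64.2% of all regions, and with RNase 15.2% and 2.59% had one, against 47.0% and 13.9%. In CTCF ID with mock treatment, 39.3% and 40% had a peak, against 70.5% and 71.8%, and with RNase 70.5% and 13.9%, against 80.6% and 37.1%. The highest share was that of CTCF ID with RNase, replicate 1, and its other replicate was the second lowest of these 8 libraries. In the libraries labelled 24 h that set the choice, single replicates of the parental proteins had a peak at 3.63% to 21.5% of the regions. Neither of the parental 48 h groups entered the choice, and leaving out the regions with a peak in a mock library kept 481 CLL and 494 LLC sites.

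CLC and LCL, at 24 h by the labels, differed between D and ID. In CLC D a peak was found at 28.2% and 32.3% of the regions, against 42.9% and 55.6% of all regions, and in CLC ID at 9.68% and 14%, against 68.0% and 71.1%. In LCL D it was found at 9.43% and 13.4%, against 63.9% and 69.7%, and in LCL ID at 2.46% and 1.86%, against 61.7% and 60.3%. In both lines the D libraries lay above the ID libraries at these regions, while 2 libraries against 2 cannot reach p = 0.05 in an exact test.

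Libraries were compared over the strongest peaks of each, with the same number of summits from every library. That number was the length of the shortest list, so that list entered whole. It was CLC D replicate 1, with 10284 summits, whereas the LCL lists held 42751 to 60799. At 48 h it was CTCFL ID with RNase, replicate 2, with 2556. Weak peaks of the longer lists fall below such a cut. Among the 10284 strongest summits, 28.2% and 16.5% of the regions had a peak in CLC D, 0.155% and 0 in CLC ID, 0.0777% and 0.0518% in LCL D and 0.0777% and 0.0259% in LCL ID. The mean was 11.2% ± 13.7 (SD, n = 4) for CLC, with zinc fingers of CTCFL, and 0.0583% ± 0.0248 (SD, n = 4) for LCL, with those of CTCF, and the difference did not pass an exact permutation test over libraries (two-sided p = 0.171, smallest possible 0.0286). The CLC D libraries set the mean, and the CLC ID libraries overlapped those of LCL. Among the 2556 strongest summits at 48 h, CTCFL ID had 7.09% and 2.18% with mock and 0.0777% and 2.59% with RNase, and CTCF ID had 0 and 0 with mock and 0.233% and 0.673% with RNase. The means were 2.98% ± 2.95 (SD, n = 4) and 0.227% ± 0.317 (SD, n = 4), and this difference did not pass either (p = 0.0857 in the same exact two-sided permutation test). With all deposited peaks the second difference was reversed, at -10.6 percentage points (exact permutation p = 0.571). Nothing in the labels says that replicates were separate cultures, so these p-values measure only the spread between libraries. Each side pooled D with ID libraries, or mock with RNase libraries, so the SD and the p-values also hold the difference between treatments.

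**Figure D3:**
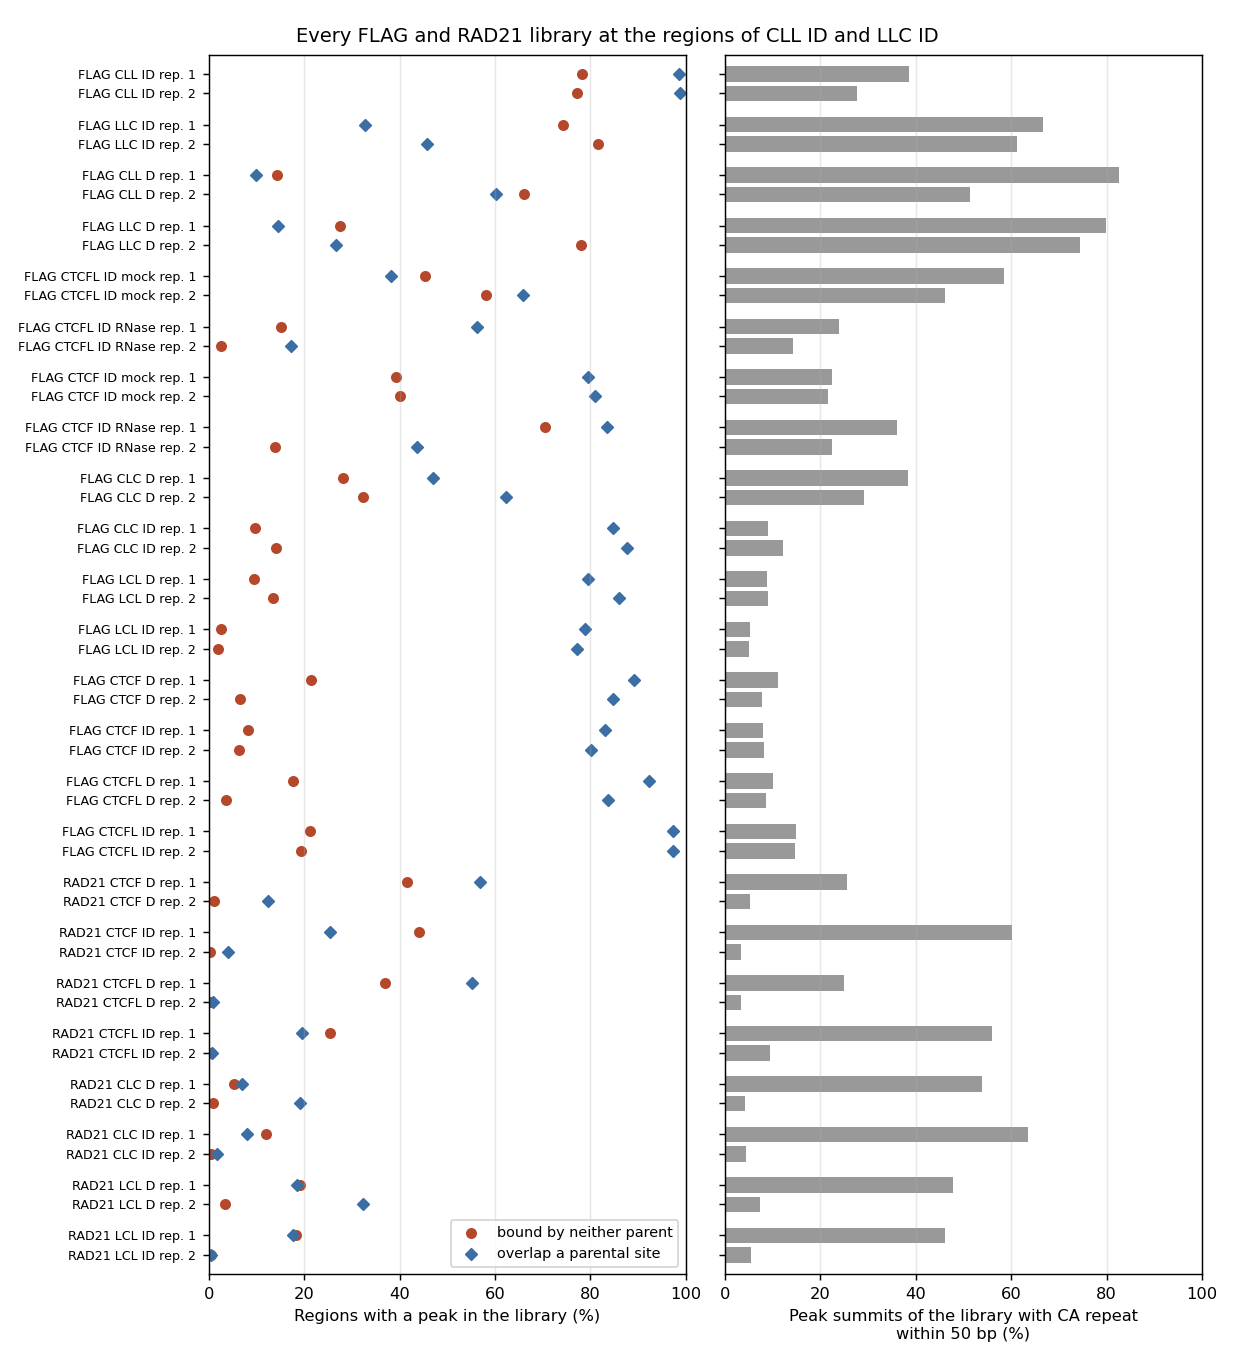
Left, share of regions with a peak in each FLAG and RAD21 library (percent), for regions bound by neither parent (red circles) and regions that overlapped a parental site (blue diamonds). Right, share of each library's peak summits with CACACACA within 50 bp (percent), which ranged from 4.99% in LCL ID to 82.7% in CLL D among FLAG libraries.

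RAD21 libraries had peaks at the same regions. At least 1 of the 16 RAD21 libraries had a peak at 3069 regions (79.5%), against 74.6% of all regions. The replicates of RAD21 were unlike each other. In replicate 1, a peak was found at 41.6% of the regions in CTCF D, against 53.4% of all regions, and at 44% in CTCF ID, against 29.6%. It was found at 36.9% in CTCFL D, against 51%, and at 25.3% in CTCFL ID, against 20.9%. In CLC D it was found at 5.33%, against 6.63%, and in CLC ID at 11.9%, against 8.79%. In LCL D it was found at 19.2%, against 18.6%, and in LCL ID at 18.2%, against 17.8%. In replicate 2, at least 1 of the 8 libraries had a peak at 186 regions (4.82%), against 30.6% of all regions. In replicate 1 of the 4 ID groups, the regions bound by neither parent thus had RAD21 peaks at least as often as all regions did, but the order depended on the repeat. Among regions with CACACACA, those that overlapped a parental site had the higher share in all 4 groups. The shares were 67.4% against 44.2% in CTCF ID and 54.5% against 25% in CTCFL ID. In CLC ID they were 28% against 11.7%, and in LCL ID 38.8% against 17.9%. Among regions without CACACACA, those bound by neither parent had the higher share in all 4 groups.

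The share of peaks at CA repeats differed widely between libraries. CACACACA lay within 50 bp of 82.7% and 51.3% of the summits of CLL D, 79.8% and 74.5% of those of LLC D, 66.7% and 61.3% of LLC ID and 38.5% and 27.7% of CLL ID. It lay within 50 bp of 58.6% and 46.2% of the summits of CTCFL ID with mock treatment, 22.5% and 21.6% of those of CTCF ID with mock treatment and 38.3% and 29.2% of those of CLC D. In the parental libraries at 24 h the share was 7.79% to 14.9%, and in LCL ID 5.25% and 4.99%. For RAD21, whose peaks are broad and were taken by their middle, it was 24.9% to 63.5% in replicate 1 and 3.32% to 9.39% in replicate 2. The regions bound by neither parent took 30.2% and 25.4% of the summits of LLC ID, 28.3% and 26.6% of LLC D and 16.3% and 11.1% of CLL ID. The part of the repeat in the choice of the regions beyond these values was not tested.

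Regions with and without the repeat recurred in a similar number of libraries but not equally in each. Regions with CACACACA had a peak in a median of 6 of the 20 FLAG libraries outside the choice, and those without it in a median of 5. At least 1 RAD21 library had a peak at 79.2% of the former and 80.7% of the latter. In CTCF ID with RNase, replicate 1, these shares were 73.6% and 54.5%, and in CTCFL ID with mock treatment, replicate 1, 47.6% and 33.5%. The 8 regions with a core match and no CACACACA had peaks in a median of 2.50 of the 20 libraries, and none in 10 or more.

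Most CA repeats of the genome did not lie at these regions. GRCm38 held 768488 loci of CACACACA, joined when they started at most 50 bp apart, on chromosomes 1 to 19 and X, and 8392 of them (1.09%) lay at the regions, of which some hold several. Repeats at regions that overlapped a parental site are not counted in this share, and a locus without a peak is not shown to be unbound, since its reads may not be placed. The share rose with the length of the locus, from 0.607% of loci of 8 to 24 bp and 0.802% of those of 25 to 49 bp to 2.02% at 50 to 99 bp, 7.84% at 100 to just under 200 bp and 17.5% at 200 bp or more. A longer locus also has more bases that a region can touch. Among loci of at least 100 bp, 13.3% of those with CATACACA and 4.77% of those without it lay at the regions. CATACACA was searched after the sequences of these same regions were seen. The loci with and without it were not matched for length.

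**Figure D4:**
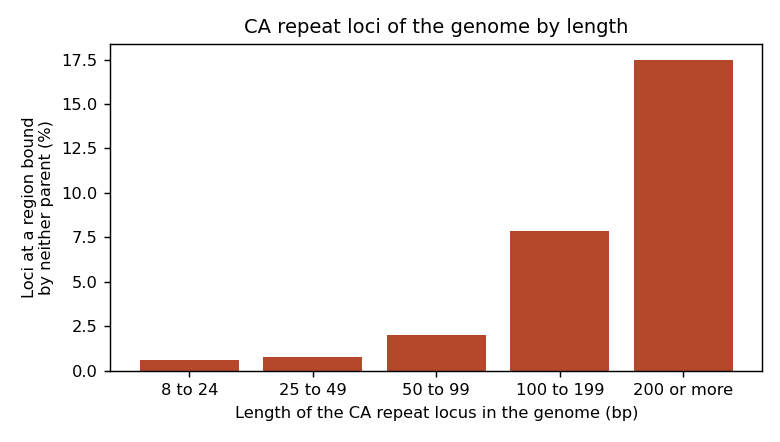
Share of the CACACACA loci of the genome that lay at a region bound by neither parent (percent, vertical axis), by length of the locus in bp (horizontal axis). The share rose from 0.607% in the shortest to 17.5% in the longest loci.

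The regions were uneven over the chromosomes. Chromosome 11 held the most, 408 regions or 3.34 per Mb, followed by chromosome 5 with 352 (2.32 per Mb) and chromosome 10 with 300 (2.30 per Mb). Chromosome 1 had the lowest density among the autosomes, at 0.721 per Mb, and the X had 8 regions, or 0.0468 per Mb. The number of CA loci did not vary in the same way: it was 331 per Mb on chromosome 11, 299 on chromosome 1 and 197 on the X. Per 1000 loci, 21.1 lay at the regions on chromosome 11, 4.86 on chromosome 1 and 0.533 on the X. Regions that overlapped a parental site were also densest on chromosome 11, with 10 per Mb, and least dense on the X, with 0.573. The cells are male and carry 1 X, and the part of copy number was not tested.

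**Figure D5:**
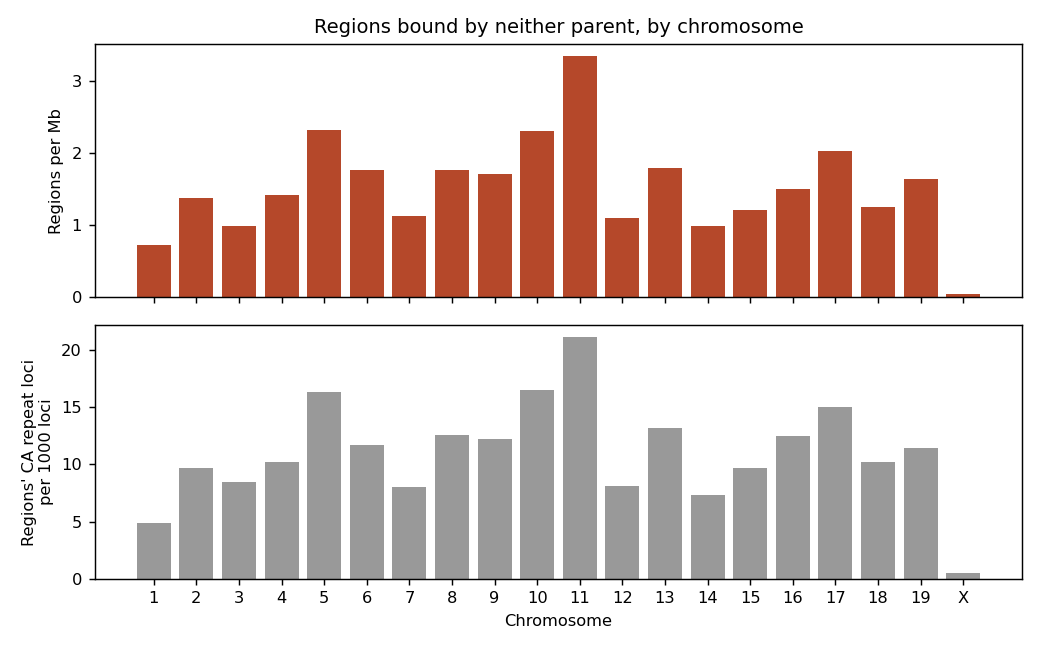
Regions bound by neither parent per Mb (top) and CA repeat loci that lay at them per 1000 loci of the chromosome (bottom), for chromosomes 1 to 19 and X. Chromosome 11 was highest in both, with 3.34 per Mb and 21.1 per 1000, and the X lowest, with 0.0468 and 0.533.

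Some of the regions lay close to each other. Another of the regions lay within 10 kb of 274 (7.09%). This share was not compared with that of other regions or of random placement. The 1 Mb windows with the most were chr16:95000001-96000000 with 17 regions, of which 16 had CACACACA, and chr2:179000001-180000000, chr4:153000001-154000000, chr5:113000001-114000000 and chr5:116000001-117000000 with 15 each, of which 13, 12, 12 and 14 had it.

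The regions lay mostly away from genes' starts. By the GENCODE annotation of GRCm38, with 75451 start positions, 423 regions (11%) had their middle within 3 kb of a start, against 21.8% of all regions of CLL ID and LLC ID and 25% of those that overlapped a parental site. Within 1 kb of a start lay 108 regions (2.80%), against 14.4% of those that overlapped a parental site. Of the rest, 1703 (44.1%) were in introns, 14 in exons and 1722 (44.6%) between genes. The median distance to a start was 17885 bp, against 9695 bp. With and without CACACACA, 11.5% and 8.15% of the regions were within 3 kb of a start.

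Few genes of any kind counted had a region bound by neither parent within 3 kb of a start. Of 53843 genes, 453 (0.841%) had one, and 7.49% had a region that overlapped a parental site. Of 98 ribosomal protein genes, 67 core histone genes and 30 heat shock genes, none had a region bound by neither parent. The same held for the 7 immediate early genes, the 8 pluripotency genes and for Stra8, Prss50 and Gal3st1, which CTCFL is known to bind in testis, although all 3 of the last had a region that overlapped a parental site. At the share of all genes, groups of these sizes would be expected to have few or no regions bound by neither parent. Of 2889 snRNA and snoRNA genes 16 (0.554%) had one. Of 1407 olfactory receptor genes 5 had one, of 417 Zfp genes 2, of 70 protocadherin genes 1 and of 39 Hox genes 1, Hoxb6. The Hoxb6 region, chr11:96290373-96290696, was a CA repeat of LLC alone with fold enrichment of 4.45 and 4.40 in LLC ID, 3.83 in CLL ID replicate 1 and 5.63 in LLC D replicate 1. Among protein-coding genes in the RNA-seq table, the 170 with a region bound by neither parent had a median of 30 normalized counts in untreated cells (11.8 to 42.5 over the 9 libraries). The 2406 genes with a region that overlapped a parental site had 386 (320 to 400), and all 21386 had 112 (74.7 to 128).

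Parental sites lay at a distance from most of the regions. The median distance to the nearest parental site was 12065 bp, and 64 regions (1.66%) had one within 500 bp. Just inside the rule were chr17:50529556-50529988 in Plcl2 and chr5:144414660-144415082 in Bri3, with a parental site 54 and 66 bp away. Just outside it were the LLC ID site chr9:117129211-117129621, which overlapped a parental site by 28 bp, and the CLL ID site chr4:19397795-19398204, by 33 bp. Only 2 CLL ID and 1 LLC ID sites overlapped one by less than 50 bp, so that the choice did not turn on marginal overlaps.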

How the data were processed

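Peak lists per replicate, whose fold enrichment (a ratio over local background) and -log10 q the authors computed with MACS, were used as deposited. Per the labels and methods, reads were trimmed with Trim Galore 0.4.4, aligned to GRCm38/mm10 with Bowtie2 and kept when unique and not duplicate. A control library is not given in the sources used here, and the peak lists give no read totals, so the depth of each library was not analysed here. A peak with several summits is listed once per summit. The RNA-seq table holds normalized counts (signal) as deposited, made by the authors from reads per gene and a size factor per library. Broad RAD21 peaks were placed by their middle. Overlaps needed 1 bp. Summits were those of the highest -log10 q. Sequences came from GRCm38 (pysam 0.24.0, Python 3.11.15), and matrix, overlaps and tests were tested on simulated data. Libraries were compared by exact two-sided permutation tests (scipy 1.17.1). Regions were named for the gene over their middle or with the nearest start, and were the 5 strongest of each class by the weaker replicate, those nearest the rule's limits and the 5 fullest 1 Mb windows. Members, lists and tests were chosen with earlier results of these data known, and the regions with a core match and the Hoxb6 region were picked after their values were seen. Alternatives are listed in the closing section. Some regions that this rule names are not reported here. IgG samples and Hi-C were not used here.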

Additional observations from a re-analysis of the deposited data

How the results depend on the processing

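Depth was not analysed here, the 4 parental groups are labelled 24 h and the chimeras 48 h, and groups hold 2 libraries, so the numbers of regions rest on the thresholds of each list. Over the alternatives, 62 recomputed values stayed within their limit, 67 went beyond it and 1 was reversed. The limit was 1.5 times for counts, the 95% interval of counting error for shares, the range of the 2 replicates for ratios of fold enrichment, and direction and threshold for the 2 tests. For all of these the cause was not tested. The shares with CACACACA under the alternatives were added after seeing the data. The shares with a 48 h mock peak gave no value where such peaks were left out. With either replicate alone there were 3353 to 4262 CLL and 3070 to 4691 LLC sites bound by neither parent, 34.2% to 43.5% of the CLL sites were overlapped by an LLC ID site and 37.5% to 39.6% of the LLC sites by a CLL ID site, 74.3% to 77.3% of the regions had CACACACA and 0.341% to 1.62% a core match. The counts of CLL and LLC sites, the overlap shares of CLL and of LLC, the share with CACACACA and the share with a core match were 892, 780, 29.9%, 34.2%, 87.5% and 0.498% with a -log10 q of at least 5 in every list. They were 853, 955, 33.1% and 29.6% with no peak in any single parental library, where the shares with repeats and core matches stayed within that interval. They were 481, 494, 23.1%, 22.7%, 76.4% and 0.926% without regions at 48 h mock peaks, and 530, 4014, 14.5%, 1.94%, 77.9% and 8.26% with equal numbers of top-ranked peaks. Without sites at least 50% soft-masked, 137 CLL and 99 LLC sites stayed, with 21.2%, 29.3%, 31.9% and 3.38%. Without regions with CACACACA (chosen after seeing the data), 406 and 382 stayed, with 39.9%, 42.4% and a core match in 1.28%. A minimum -log10 q of 2 in every list, also chosen after seeing the data, moved the overlap share of CLL to 45.6%. CACACACA was found in 67.0% within 25 bp and 92.0% within 100 bp, and a core match in 0.104% at the 99th percentile of the control windows. CACACACA was thus found in most regions in each setting named here, except without soft-masked sites and without regions with CACACACA.

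The difference of CLC from LCL stayed positive, at 8.21 to 14.1 percentage points without either replicate number, where no p below 0.333 is possible. In the settings with 4 libraries on either side and no block, its exact permutation p was 0.0571 to 0.229. That of CTCFL from CTCF at 48 h was 2.05 to 3.47 without either number, and was reversed to -10.6 with all deposited peaks. The differences between replicates at single regions did not go together in same-numbered libraries, with correlations over regions of -0.04 to 0.06. A shift of a whole library shared by same-numbered libraries cannot show in these correlations. Whether the numbers mark batches was therefore not tested, and the main tests take them as names. With the replicate number as a block, the differences were 11.2 and 2.76 percentage points, each with p = 0.25 in an exact sign-flip permutation test, in which 4 pairs allow no p below 0.125.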
